A study of Homo sapiens with 10 samples.

Results

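A set of 8 well known long noncoding RNAs was followed in RNA-sequencing libraries of U2OS cells after knockdown of DDX41, an RNA helicase. They were taken by name, through the Ensembl identifier of each gene, and are MALAT1, NEAT1, NORAD, TUG1, KCNQ1OT1, MIAT, CYTOR and H19. All 8 were found among the 63299 genes of the count tables, and all 8 were among the 16143 genes that were tested. U2OS is a human osteosarcoma cell line, and all libraries come from this line. Cells received either a control siRNA (siCtrl) or a pool of siRNAs against DDX41 (siDDX41), and RNA was taken 48 h later, with 5 libraries per group. The labels number the libraries but do not say that they come from separate cultures, so the p-values measure only the spread between these libraries, which may be technical. The comparison asks how the RNA level of each of these genes differed once DDX41 had been depleted.

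Long noncoding RNAs (lncRNAs) are transcripts without a long open reading frame, and many act where they are made or kept. NEAT1 is the scaffold of paraspeckles, nuclear bodies that hold RNA-binding proteins, and MALAT1 collects in nuclear speckles, which hold splicing factors. MIAT also stays in the nucleus, TUG1 is found in nucleus and cytoplasm, NORAD is a cytoplasmic RNA that binds PUMILIO proteins, and CYTOR was named for its links to the cytoskeleton. KCNQ1OT1 and H19 come from neighbouring imprinted domains of the short arm of chromosome 11, where each is transcribed from the allele of a single parent. The libraries were made from polyadenylated RNA, whereas MALAT1 and the long NEAT1 isoform end in a triple helix in place of a poly(A) tail. Their values are therefore those of the RNA that this selection captured.

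DDX41 itself had 48.7 ± 1.43 CPM (counts scaled to library size with TMM factors; SD, n = 5) in siCtrl and 12.2 ± 1.00 CPM in siDDX41 (log2 fold change -1.99). Between 21807041 and 24896398 reads were counted per library. Of 9 markers of mesenchymal lines, 8 reached 1 CPM (COL1A2 did not), whereas none of 5 blood markers did and CD3E and HBB, among others, were at 0. Of the epithelial markers, 2 of 4 reached 1 CPM (summed level 13.4 to 15.0 CPM in siCtrl and 8.77 to 10.8 CPM in siDDX41), with KRT20 at 0, and of the endothelial markers 1 of 3 did (4.63 to 5.64 and 1.51 to 2.89 CPM). Neither liver marker did (0.493 to 1.14 and 0.169 to 0.367 CPM). The sums of these 3 lists were lower in siDDX41 without overlap, and their part in the results was not tested. Sums of the mesenchymal markers (9156 to 9544 CPM in siCtrl and 8891 to 9236 CPM in siDDX41) overlapped between groups. So did those of the blood markers (0.244 to 0.424 and 0.391 to 0.633 CPM). The libraries siCtrl 3 and siDDX41 2 stood apart for the lncRNAs: each was the highest of its group for the same 6 of 8 members (MALAT1, NEAT1, NORAD, TUG1, KCNQ1OT1 and MIAT) and the lowest for CYTOR. In these libraries, the deviation of a gene from its group mean also went with the length of its longest transcript (Spearman's rho 0.392 in siCtrl 3 and 0.240 in siDDX41 2 across 11246 genes, which are not independent replicates). Length went the other way in siCtrl 2 (rho -0.307), which was the lowest siCtrl library for 5 members, and rho lay between -0.163 and 0.103 in the other libraries. With GC content, rho was -0.383 in siCtrl 3 but 0.145 in siDDX41 2, and it reached 0.379 in siCtrl 5 and 0.383 in siDDX41 5, so siCtrl 3 and siDDX41 2 were not alike on that measure. Where values of the members rest on these libraries, they are also given without them.

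**Figure D1:**
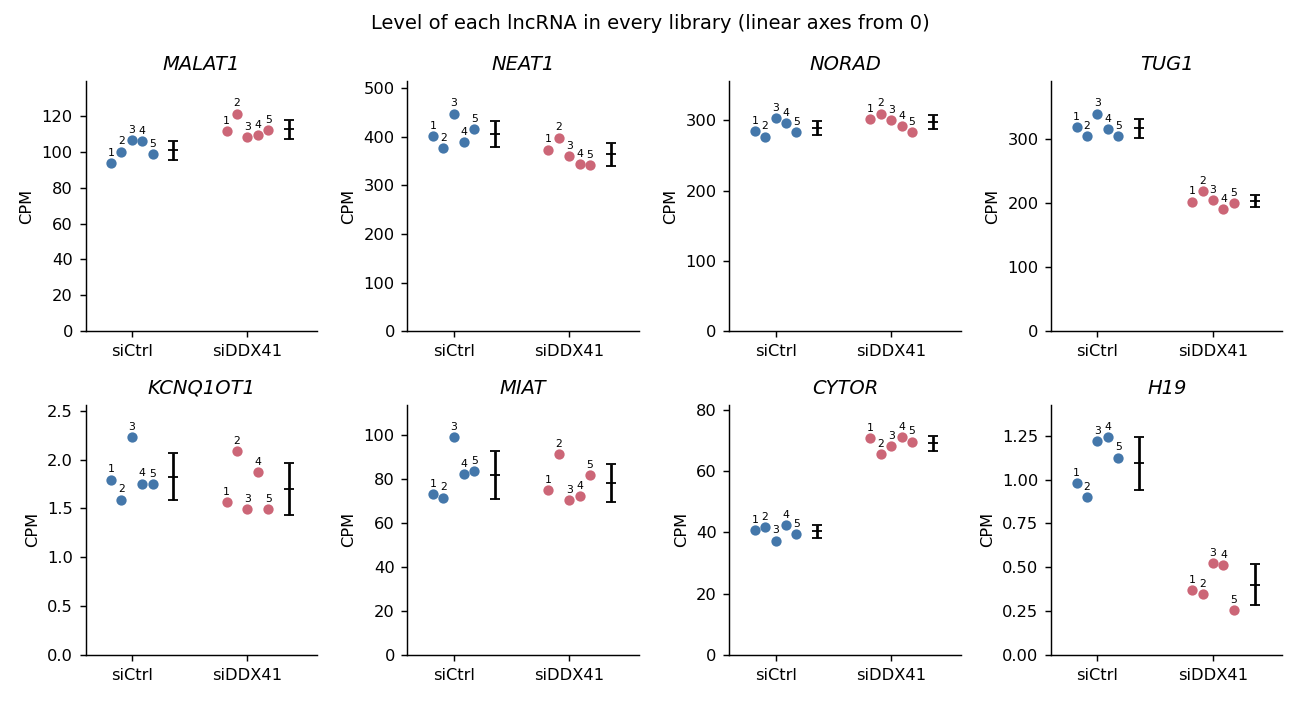
Level of each lncRNA in CPM (linear axes from 0) in the 5 siCtrl and 5 siDDX41 libraries, numbered by replicate, with the mean and SD of each group beside the points. The groups are apart for TUG1, CYTOR, H19 and, narrowly, MALAT1, and siCtrl 3 and siDDX41 2 are the highest points of their groups in 6 of the 8 panels.

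Across the 8 lncRNAs, 2 rose (CYTOR and MALAT1), 2 fell (TUG1 and H19) and 4 were not called at an adjusted p-value under 0.01 (edgeR's quasi-likelihood test, Benjamini-Hochberg adjustment over all tested genes). Among all tested genes, 30.3% were called higher and 32.1% lower (62.4% in either direction), so that the members' shares of 25% in each direction lie near this background. Among the 1954 other tested lncRNA genes, 19.2% were called higher and 22.5% lower (41.7% in either direction). The same 4 members were also those whose groups did not overlap in any library, which was seen in 26.7% of all tested genes towards higher and in 29.3% towards lower levels (55.9% in all). In the other lncRNA genes these shares were 16.6%, 19.2% and 35.9%. The median log2 fold change of the members was -0.09, against -0.01 for the other lncRNA genes and -0.00 for all tested genes. The median size of the log2 fold change, without its sign, was 0.16 for the members, 0.38 for the other lncRNA genes and 0.28 for all genes. The changes of the members thus ran from a fold of 0.373 for H19 to 1.71 for CYTOR, with no common direction. The value of H19 rests on 6 to 13 reads per siDDX41 library, and H19 passed the filter on low counts through the siCtrl libraries. In bulk RNA, fewer cells that express a gene and less of its RNA per cell cannot be told apart.

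**Figure D2:**
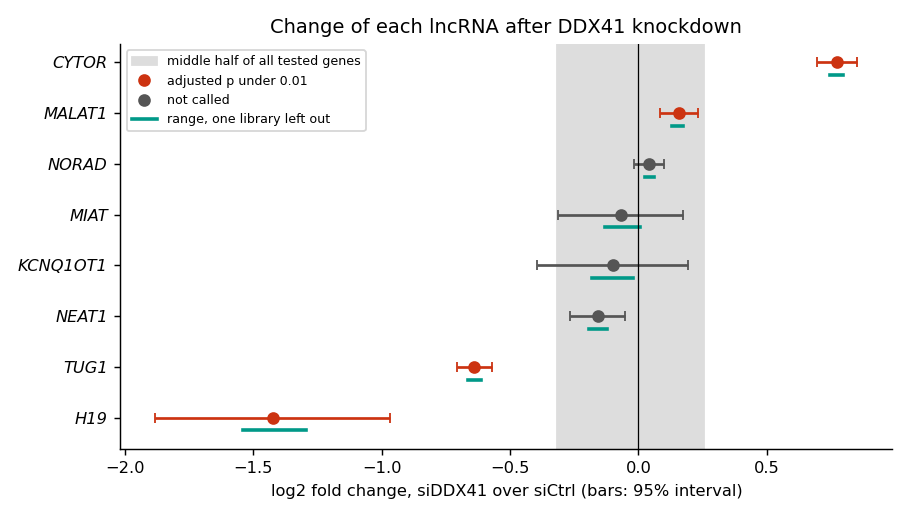
Log2 fold change of each lncRNA (siDDX41 over siCtrl) with its 95% interval, in red where the adjusted p-value is under 0.01. The green bars give the range over fits that each lacked 1 library, and the grey band is the interquartile range of all tested genes. CYTOR, TUG1 and H19 lie outside the band, and only the green bar of MIAT reaches across 0.

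Levels of different genes were compared per kb of annotated exon, in siCtrl libraries. NORAD was highest with 53.5 CPM per kb, followed by TUG1 with 31.1, NEAT1 with 17.8, MALAT1 with 9.68, MIAT with 5.15 and CYTOR with 2.27 CPM per kb. H19 with 0.316 and KCNQ1OT1 with 0.0197 CPM per kb came last on this scale. The ranges of neighbours in this order did not overlap in the siCtrl libraries. NORAD ranked 2 and NEAT1 ranked 21 among lncRNA genes by CPM per kb, whereas H19 ranked 1448 and KCNQ1OT1 ranked 1956. By plain CPM, which ignores length, KCNQ1OT1 ranked 818 and H19 ranked 1137 among lncRNA genes, so that neither was among the abundant lncRNAs of these cells. The order depends on the length used: by the length of the canonical transcript, CYTOR had 39.5 CPM per kb and came after TUG1 with 42.3, while MIAT had 21.7 and came before NEAT1. KCNQ1OT1 changed by the largest fold, from 0.0197 to 2.69 CPM per kb with a canonical transcript of 679 bases. It then lay above H19 with 0.988. TUG1, which carries the biotype protein-coding in the annotation used here, is not ranked among the lncRNA genes. Together, the 8 genes took 0.118% to 0.135% of all counts in siCtrl and 0.107% to 0.121% in siDDX41 libraries.

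**Figure D3:**
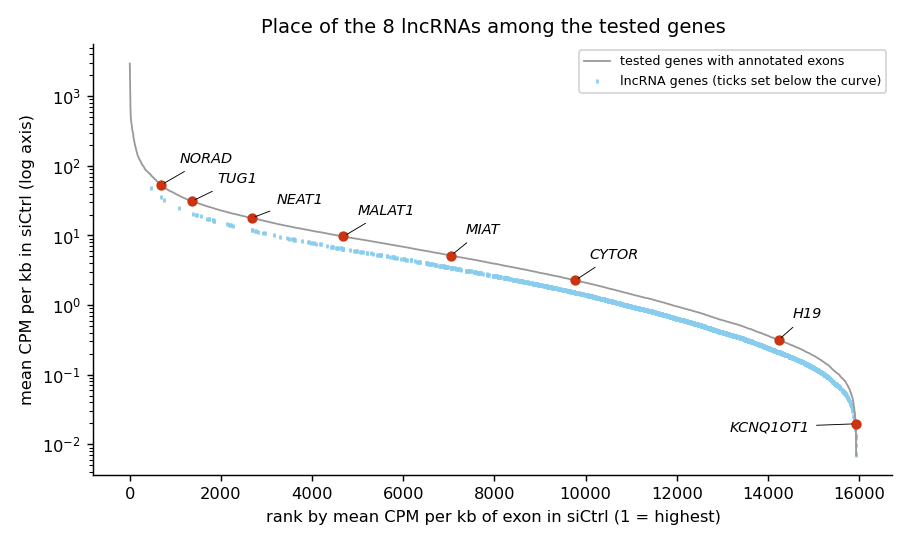
Mean level in siCtrl in CPM per kb of annotated exon (log axis) against the rank by this level, for the tested genes with annotated exons (grey line), with lncRNA genes as blue ticks set below the line and the 8 members in red. NORAD, at 53.5 CPM per kb, is the highest member, and KCNQ1OT1, at 0.0197 CPM per kb, lies at the lower end of the curve.

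NEAT1 and MALAT1 are neighbours on chromosome 11, transcribed in the same direction with starts 74866 bases apart. NEAT1 (ENSG00000245532.6, GRCh38 chromosome 11, 65422774 to 65445540, plus strand) had 400, 377, 447, 388 and 415 CPM in siCtrl libraries 1 to 5. In siDDX41 libraries 1 to 5 it had 373, 398, 359, 344 and 342 CPM. The groups overlapped because siDDX41 2 lay above siCtrl 2 and siCtrl 4. The means were 405 ± 27.1 and 363 ± 23.2 CPM (SD, n = 5), and the change on the log2 scale was -0.16 (SE 0.05), which was not called (adjusted p = 0.0115 in edgeR's quasi-likelihood test). This value lies just past the threshold, and the call depends on the setting. Without siCtrl 3 and siDDX41 2, a choice made after the values were seen, the log2 fold change of NEAT1 was the same (-0.16), but its standard error was 0.03 and its adjusted p = 8.26e-05 in the same test. The remaining libraries then ranged from 377 to 415 CPM in siCtrl and from 342 to 373 CPM in siDDX41, without overlap. NEAT1 was also called without siCtrl 2, siCtrl 3, siCtrl 4 or siDDX41 2 alone, and its adjusted p in edgeR's test ran from 0.000665 to 0.0265 over the 10 fits that each lacked 1 library. The short and the long NEAT1 isoform share their 5′ end and are a single gene in the count tables, so they were not told apart.

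MALAT1 (ENSG00000251562.7, chromosome 11, 65497640 to 65508073, plus strand) rose. It had 93.8, 100.2, 106.4, 106.1 and 98.8 CPM in siCtrl libraries 1 to 5, and 111.7, 121.3, 108.4, 109.4 and 112.0 CPM in siDDX41 libraries 1 to 5. Every siDDX41 library lay above every siCtrl library, although siDDX41 3 exceeded siCtrl 3 by little. The log2 fold change was 0.16 (standard error 0.04, 95% interval 0.08 to 0.23, adjusted p = 0.000357 in edgeR's quasi-likelihood test), an increase of 11.4%. It was called with each of the 10 libraries left out, with values between 0.13 and 0.17. TALAM1, a transcript from the opposite strand, covers 77.8% of the MALAT1 exons in the annotation used here and was not analysed here.

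The difference between these 2 neighbours was tested as a ratio within each library, in which the scaling of the library cancels. NEAT1 had 3.66 to 4.26 times the CPM of MALAT1 in siCtrl libraries and 3.05 to 3.34 times in siDDX41 libraries, with no overlap. The mean log2 ratio was 2.00 in siCtrl and 1.69 in siDDX41, a difference of -0.32 (two-sided exact permutation test, p = 0.00794, which is the smallest value that 5 against 5 libraries allow and also the value adjusted over the 4 ratios tested). The siCtrl 3 library, high for both genes, was not extreme in this ratio.

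MIAT (ENSG00000225783.6, chromosome 22, 26646411 to 26676475, plus strand) carries repeated copies of a motif that matches the branch point consensus bound by the splicing factor SF1. The longest annotated MIAT transcript has 7 copies of TACTAAC (sense strand), the most of any of the 15936 longest transcripts searched, of which 8.66% have at least 1. Per length it was less unusual: MIAT has 0.690 copies per kb, and 38 of these transcripts, MIAT included, are at least as dense. A stretch with a pair of copies, in capitals, is shown because MIAT is known for this repeat. It lies in an exon at chr22:26672182-26672211 of hg38 (plus strand).

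MIAT: TACTAACccagccccTACTAACcctgtttt

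MIAT had 73.1, 71.4, 98.7, 82.0 and 83.6 CPM in siCtrl libraries 1 to 5 and 74.7, 91.0, 70.2, 71.9 and 81.7 CPM in siDDX41 libraries 1 to 5. The groups overlapped over most of their range, and siCtrl 3 and siDDX41 2 were the highest of each. MIAT thus had a log2 fold change of -0.07 (standard error 0.11, 95% interval -0.31 to 0.17, adjusted p = 0.580 in edgeR's quasi-likelihood test). Without both of these libraries it was -0.05 with a standard error of 0.06, and without siCtrl 3 alone it was 0.01, with the opposite sign. A further lncRNA gene on the same strand, MIATNB, shares 1.52% of the MIAT exons and had 9.07% as many counts.

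TUG1 (ENSG00000253352.8, chromosome 22, 30969245 to 30979395, plus strand) fell to 0.642 times its siCtrl level. It had 318, 305, 339, 315 and 305 CPM in siCtrl libraries 1 to 5 and 202, 218, 204, 191 and 200 CPM in siDDX41 libraries 1 to 5. The highest siDDX41 library lay well below the lowest siCtrl library. TUG1 had a log2 fold change of -0.64 (standard error 0.03, 95% interval -0.71 to -0.57, adjusted p = 8.20e-16 in edgeR's quasi-likelihood test), a fold of 0.642. The two-sided exact permutation test of log2 CPM gave p = 0.00794, the smallest value possible here, and with each library left out the log2 fold change stayed between -0.66 and -0.61.

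TUG1 and MORC2, a gene for a chromatin ATPase, start close together on opposite strands, with RefSeq starts 491 bases apart. The promoter window of TUG1 is shown because TUG1 fell and because this neighbour lies so near. It holds the 250 bases before and the 50 bases after the RefSeq start, at chr22:30969015-30969314 of GRCh38.p14 (plus strand), and is credited to RefSeq. Capitals mark CCAAT on either strand, so that ATTGG is the same box on the other strand, and the E-box CACGTG.

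TUG1: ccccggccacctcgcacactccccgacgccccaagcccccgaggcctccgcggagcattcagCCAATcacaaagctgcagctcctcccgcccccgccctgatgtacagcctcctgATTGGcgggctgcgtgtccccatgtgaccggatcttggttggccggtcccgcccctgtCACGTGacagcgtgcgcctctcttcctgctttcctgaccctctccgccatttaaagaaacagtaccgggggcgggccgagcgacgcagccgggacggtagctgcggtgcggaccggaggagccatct

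Among 27305 RefSeq promoter windows of this length, 11.3% hold at least 2 matches to CCAAT and 7.43% hold at least 1 match to CACGTG, both strands searched and the motifs not overlapping each other. NORAD is the other member whose window holds CACGTG. These motifs were chosen after the sequence had been read, and a match describes letters only. MORC2 fell too, by 0.19 on the log2 scale (83.3 ± 2.11 to 73.2 ± 2.46 CPM, adjusted p = 8.25e-06 in edgeR's quasi-likelihood test). The log2 ratio of TUG1 to MORC2, a ratio added after the data were seen, was 1.92 in siCtrl and 1.47 in siDDX41 (two-sided exact permutation test, p = 0.00794). TUG1 therefore fell by more than MORC2, by 0.45 on the log2 scale, in a comparison where no library of one group reached the other.

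NORAD (ENSG00000260032.1, chromosome 20, 36045618 to 36051018, minus strand) is known to carry many PUMILIO elements. Its transcript of 5401 bases has 15 matches to TGTANATA on the sense strand, or 2.78 per kb, against 0.129 per kb over all 15936 longest transcripts. As many matches were found in 5 of these transcripts, NORAD included. A pair of neighbouring elements is shown in capitals, at chr20:36049490-36049519 of hg38, read 5′ to 3′ on the minus strand.

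NORAD: TGTATATAgTGTACATAaaggacagacgag

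NORAD had 285, 277, 303, 296 and 284 CPM in siCtrl libraries 1 to 5, and 302, 310, 301, 292 and 283 CPM in siDDX41 libraries 1 to 5. The groups overlapped, with siDDX41 5 below all but 1 of the siCtrl libraries. NORAD differed by 0.04 on the log2 scale (standard error 0.03, 95% interval -0.02 to 0.10, adjusted p = 0.214 in edgeR's quasi-likelihood test). The 95% interval of its fold ran from 0.987 to 1.07. Of the 84-base windows of the NORAD transcript, 77.4% occur once in the genome.

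CYTOR (ENSG00000222041.10, chromosome 2, 87454781 to 87636740, plus strand) has a near-identical copy, MIR4435-2HG, further along the same chromosome on the other strand. Their promoter windows are shown because CYTOR rose and the copy was not called, although the windows are alike. They lie at chr2:87455177-87455476 (plus strand) and chr2:111495112-111495411 (minus strand) of GRCh38.p14 and are credited to RefSeq. Capitals mark TGANTCA, the element known to be bound by AP-1 factors.

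CYTOR: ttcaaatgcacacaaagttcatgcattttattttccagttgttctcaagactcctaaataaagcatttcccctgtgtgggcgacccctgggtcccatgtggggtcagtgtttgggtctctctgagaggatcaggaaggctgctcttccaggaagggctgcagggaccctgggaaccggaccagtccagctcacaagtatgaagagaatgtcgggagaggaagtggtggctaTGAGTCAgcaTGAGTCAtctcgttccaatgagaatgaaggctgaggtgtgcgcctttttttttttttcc
MIR4435-2HG: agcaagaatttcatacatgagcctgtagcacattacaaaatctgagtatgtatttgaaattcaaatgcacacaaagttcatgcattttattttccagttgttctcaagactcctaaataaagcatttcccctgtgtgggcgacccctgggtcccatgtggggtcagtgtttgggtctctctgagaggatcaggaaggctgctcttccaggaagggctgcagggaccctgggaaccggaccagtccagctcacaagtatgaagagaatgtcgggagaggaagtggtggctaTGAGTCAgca

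The windows share a run of 241 bases, in which all 241 are identical, and are set 59 bases apart by the annotated starts. TGANTCA occurs 2 times in the CYTOR window and 1 time in that of MIR4435-2HG, which ends within the repeat. At least 2 matches on either strand are found in 0.505% of the 27305 promoter windows and at least 1 in 7.76%. TGANTCA was counted beside CCAAT and CACGTG and is the only motif marked here. A match describes letters only, and its part in the rise of CYTOR was not tested. The windows of MALAT1, NORAD, TUG1, MIAT and H19 have none, and NEAT1 and KCNQ1OT1 were not in the promoter table.

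CYTOR had 40.7, 41.8, 37.3, 42.4 and 39.5 CPM in siCtrl libraries 1 to 5 and 70.8, 65.4, 68.0, 71.0 and 69.6 CPM in siDDX41 libraries 1 to 5. Each siDDX41 library lay far above each siCtrl library. CYTOR rose by 0.77 on the log2 scale (standard error 0.04, 95% interval 0.70 to 0.85, adjusted p = 4.70e-17 in edgeR's quasi-likelihood test), a fold of 1.71. With each library left out it stayed between 0.75 and 0.80. MIR4435-2HG had 107 to 113 CPM in siCtrl and 114 to 118 CPM in siDDX41, also higher without overlap. Its log2 fold change was 0.08 (adjusted p = 0.0163 in the same test, not called), and it was called in 4 of the alternative settings. CYTOR had 0.331 to 0.390 times the CPM of MIR4435-2HG in siCtrl and 0.575 to 0.613 times in siDDX41, a log2 difference of 0.70 without overlap (two-sided exact permutation test, p = 0.00794). Only 45.7% of the 84-base windows of CYTOR occur once in the genome, and 42.4% also occur in the copy, so the authors' counting could assign reads of either gene in more than a single way. When the counts of both genes were summed, the log2 fold change was 0.30 (adjusted p = 2.72e-11 in edgeR's quasi-likelihood test).

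KCNQ1OT1 (ENSG00000269821.1, chromosome 11, 2597308 to 2700003, minus strand) is the long antisense RNA of the KCNQ1 domain, where it is known to silence neighbouring genes in cis. Between 34 and 53 reads per library were counted, or 1.80, 1.59, 2.23, 1.75 and 1.75 CPM in siCtrl libraries 1 to 5 and 1.56, 2.08, 1.49, 1.87 and 1.49 CPM in siDDX41 libraries 1 to 5. The groups overlapped, and siCtrl 3 and siDDX41 2 were again highest. Without both, the log2 fold change was -0.10, while it was -0.02 without siCtrl 3 alone and -0.18 without siDDX41 2 alone. The log2 fold change was -0.10 (standard error 0.14, 95% interval -0.40 to 0.19, adjusted p = 0.542 in edgeR's quasi-likelihood test), and the 95% interval of the fold, from 0.760 to 1.14, holds both a decrease and an increase. KCNQ1, on the opposite strand, had 2 to 7 counts per library in siCtrl and 3 to 12 in siDDX41 and was not tested, and the planned ratio of KCNQ1OT1 to KCNQ1 was therefore not made.

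H19 (ENSG00000130600.16, chromosome 11, 1995166 to 2004552, minus strand) shares an imprint control region with IGF2, which encodes a growth factor and is expressed from the other parental allele. H19 fell: each siCtrl library held 22 to 29 of its reads, and each siDDX41 library held 6 to 13. Its level was 0.980, 0.898, 1.22, 1.24 and 1.12 CPM in siCtrl libraries 1 to 5 and 0.368, 0.347, 0.524, 0.511 and 0.255 CPM in siDDX41 libraries 1 to 5. No siDDX41 library reached a siCtrl library. The log2 fold change was -1.42 (standard error 0.22, 95% interval -1.88 to -0.97, adjusted p = 1.72e-06 in edgeR's quasi-likelihood test), a fold of 0.373. H19 passed the expression filter through the siCtrl libraries, all 5 of which were above its limit of 0.422 CPM, against 2 of 5 siDDX41 libraries, and a gene that passes in this way had to be higher in siCtrl. With no filter on low counts, the log2 fold change of H19 was -1.42 as well (adjusted p = 5.00e-08 in edgeR's quasi-likelihood test). That fit gave smaller adjusted p-values for the other called members too, such as TUG1 (2.00e-102 against 8.20e-16 in the same test). The smaller p-value is thus not particular to H19. With each library left out, the log2 fold change of H19 stayed between -1.54 and -1.30 and was called each time.

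IGF2 had 20.4 ± 1.49 CPM in siCtrl and 22.2 ± 0.96 CPM in siDDX41, in groups that overlapped, and a log2 fold change of 0.12 (adjusted p = 0.0388 in edgeR's quasi-likelihood test, not called). The log2 ratio of H19 to IGF2 was -4.20 in siCtrl and -5.76 in siDDX41, a difference of -1.56 without overlap (two-sided exact permutation test, p = 0.00794). This ratio was made because H19 passed the filter, so the limit given above for H19 holds for it too. Of 15 listed genes around these imprinted domains, 7 were tested, of which 2 rose and 1 fell (median log2 fold change 0.12), beside 62.4% of all tested genes called in either direction. The actin-binding protein gene LSP1 fell from 17.1 ± 0.95 to 4.90 ± 0.56 CPM, the splicing factor assembly gene TSSC4 rose by 0.59 on the log2 scale, and the tetraspanin gene CD81 rose by 0.12 on the log2 scale. CDKN1C, PHLDA2 and ASCL2, known as imprinted genes of the KCNQ1OT1 domain, did not pass the expression filter.

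Within each group, siCtrl 3 and siDDX41 2 stood out in most members together. The deviations of the 10 libraries from their group means correlated with r = 0.82 between NEAT1 and TUG1, 0.80 between MALAT1 and MIAT and 0.79 between NEAT1 and NORAD. For CYTOR, r was negative with all other members, from -0.85 with NEAT1 to -0.08 with H19. Without siCtrl 3 and siDDX41 2, a choice made after the values were seen, these correlations were 0.33 between NEAT1 and TUG1, 0.53 between MALAT1 and MIAT, 0.52 between NEAT1 and NORAD and -0.52 between NEAT1 and CYTOR, while CYTOR and MALAT1 had r = 0.60. Most correlations between members were thus weaker without these 2 libraries, but several of H19 were stronger. For H19, r went from 0.47 to 0.65 with NORAD, from 0.27 to 0.50 with KCNQ1OT1 and from 0.14 to 0.24 with NEAT1. With MIAT it went from -0.12 to -0.29 and with TUG1 from -0.05 to -0.13, while r of H19 with MALAT1 and CYTOR was weaker. These are descriptions over 10 or 8 libraries that share their depth and scaling. Deviations of MIAT were the widest of the more abundant members, from -0.19 in siCtrl 2 to 0.28 in siCtrl 3 on the log2 scale.

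**Figure D4:**
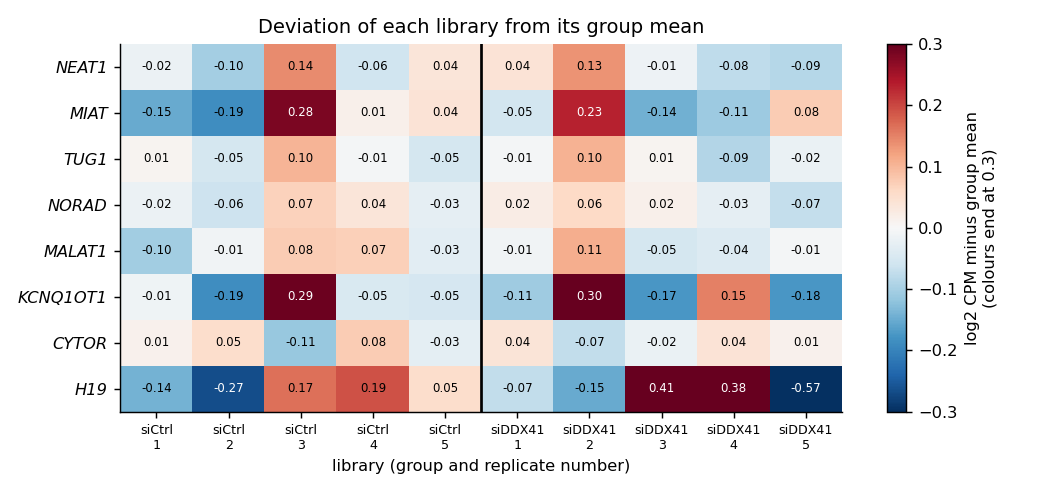
Deviation of log2 CPM from the group mean for each lncRNA (rows) and library (columns, siCtrl left of the line and siDDX41 right of it), with colours ending at 0.3. The columns of siCtrl 3 and siDDX41 2 are positive in all rows from NEAT1 to KCNQ1OT1 and negative for CYTOR.

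The genes most like each member in these deviations, among genes with at least 5 CPM (11277 genes, or 11278 for the members below that level), were found by the highest r over 10 libraries. They were DUXAP8 for MALAT1 (0.97), CD27-AS1 for NEAT1 (0.96), CCDC14 for NORAD (0.97), RREB1 for TUG1 (0.96), ENSG00000251095 for KCNQ1OT1 (0.97), TACC1 for MIAT (0.98), TIMM10 for CYTOR (0.96) and NUP62CL for H19 (0.97). Over the 8 libraries without siCtrl 3 and siDDX41 2, r of the same pairs lay between 0.86 (TUG1) and 0.99 (H19). These are the highest of many values and describe these libraries only. The fold changes were not alike: CD27-AS1 rose by 0.52 on the log2 scale, whereas NEAT1 was not called, and RREB1 rose by 0.25 while TUG1 fell.

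The genes for proteins of paraspeckles, which NEAT1 scaffolds, moved in both directions: 9 of 29 tested rose, 12 fell and 8 were not called (median log2 fold change -0.03). This and the following counts stand beside the 62.4% of all tested genes that were called in either direction (median -0.00). The RNA-binding protein gene HNRNPA1 fell from 877 ± 34.2 to 601 ± 14.3 CPM and AHDC1 from 29.4 ± 2.51 to 12.2 ± 0.61 CPM. FIGN, which encodes a microtubule-severing ATPase, rose from 41.7 ± 3.29 to 73.2 ± 3.06 CPM. Among the core proteins, NONO (log2 fold change -0.22) and PSPC1 (-0.17) fell, and SFPQ was at 0.07 (adjusted p = 0.0149 in edgeR's quasi-likelihood test, not called).

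Of 22 genes for proteins of nuclear speckles, where MALAT1 collects, 4 rose, 9 fell and 9 were not called (median -0.02). The exon junction protein gene RNPS1 fell from 146 ± 5.05 to 91.7 ± 3.20 CPM and the splicing coactivator gene SRRM1 from 127 ± 5.36 to 92.3 ± 4.65 CPM, whereas PNN rose from 109 ± 2.98 to 159 ± 3.11 CPM. The scaffold gene SON rose by 0.17 on the log2 scale, and SRRM2 was at -0.11 and not called. Of 15 genes for factors of 3′ end processing and the triple helix, 4 rose, 4 fell and 7 were not called (median -0.03). METTL16, a methyltransferase known to bind the MALAT1 triple helix, rose from 32.5 ± 0.72 to 47.1 ± 2.54 CPM. ELAC2, the tRNA 3′ end nuclease, fell by 0.24 and POP1, a subunit of RNase P, rose by 0.29 on the log2 scale.

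Of 9 genes for NORAD partners, 3 rose, 4 fell and 2 were not called. PUM2 was among the latter, at 0.06 on the log2 scale. The export factor gene ALYREF rose from 108 ± 4.45 to 141 ± 5.86 CPM and the splicing gene PRPF19 from 215 ± 5.90 to 256 ± 8.89 CPM, while CDC5L fell from 157 ± 3.26 to 135 ± 4.44 CPM. Of 5 tested partners of MIAT, 1 rose and 2 fell: CELF2 fell from 8.34 ± 0.47 to 3.60 ± 0.36 CPM and QKI by 0.30 on the log2 scale, CELF1 rose by 0.24, and SF1 and SRSF1 were not called.

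Of 21 genes for chromatin partners of lncRNAs, mostly of the Polycomb complexes, 5 rose, 9 fell and 7 were not called (median 0.00). RBBP4 fell from 296 ± 6.01 to 212 ± 3.79 CPM, JARID2 from 61.0 ± 0.97 to 38.8 ± 1.77 CPM and CBX2 from 117 ± 2.07 to 83.7 ± 3.14 CPM. The Polycomb methyltransferase gene EZH2 fell by 0.29 and its partner genes SUZ12 by 0.18 and EED by 0.13 on the log2 scale. The 5 that rose were CBX7 (0.51), PHC2 (0.35), HNRNPU (0.33), RNF2 (0.28) and EHMT1 (0.10), all but HNRNPU and EHMT1 being Polycomb genes. Of 12 genes for RNA-binding and imprint control factors of H19 and IGF2, 4 rose, 5 fell and 3 were not called (median -0.00). DICER1 rose from 90.1 ± 4.82 to 157 ± 8.18 CPM and IGF2BP3 from 5.27 ± 0.50 to 8.91 ± 0.43 CPM, whereas the related genes IGF2BP1 (-0.64) and IGF2BP2 (-0.21) fell. CTCF, which binds the imprint control region of H19, fell from 146 ± 3.14 to 104 ± 4.06 CPM.

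Of 28 other named lncRNA genes that were tested, 10 rose, 11 fell and 7 were not called (median -0.02, from -1.60 for LINC00511 to 1.36 for MIR100HG). LUCAT1 rose from 7.09 ± 0.52 to 17.4 ± 1.02 CPM and MIR100HG from 5.06 ± 0.15 to 13.0 ± 0.86 CPM. Their log2 fold changes (1.29 and 1.36) exceeded those of MALAT1 (0.16) and CYTOR (0.77) but were smaller in size than that of H19 (-1.42). These are separate values of the same comparison, without a test of the difference. 

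Around the members, 51 neighbouring genes with a start within 250 kb were tested, of which 12 rose, 16 fell and 23 were not called (median 0.00). The genes around MALAT1 and NEAT1 are largely the same. Of 19 genes around MALAT1, 7 rose and 5 fell. MALAT1 itself is among the genes around NEAT1, and the carrier gene SLC25A45 (0.87) rose most around both. Higher values were also found for EHBP1L1 (0.73), FAUP4 (0.76), LTBP3 (0.54), ZNRD2 (0.44), CDC42EP2 (0.42) and DPF2 (0.10), and lower ones for RNASEH2C (-0.53), SIPA1 (-0.20), FRMD8 (-0.17) and RELA (-0.10). RNASEH2C encodes a subunit of the RNase H2 complex, which cuts RNA in RNA-DNA hybrids, and RELA a subunit of NF-kB. The calls of DPF2 and RELA were lost in some of the alternative settings.

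Of 7 genes around TUG1, 4 fell (MORC2, INPP5J at -1.43, ENSG00000273387 at -0.99 and RNF185 at -0.30) and SELENOM rose (0.54). Around MIAT, which was itself not called, 3 of 11 genes rose and 4 fell. The lens crystallin genes CRYBA4 (2.49 ± 0.19 to 0.163 ± 0.03 CPM) and CRYBB1 (2.10 ± 0.43 to 0.391 ± 0.11 CPM) fell, as did TPST2 (-0.38) and SRRD (-0.19), and LINC01422 (1.11), TFIP11-DT (0.23) and ASPHD2 (0.14) rose. The siDDX41 means of CRYBA4 and CRYBB1 lay below the filter limit of 0.422 CPM, so that both passed through the siCtrl libraries, as H19 did, and had to be higher in siCtrl. The call of ASPHD2 was lost without siCtrl 3 and siDDX41 2. Of the genes around NORAD, EPB41L1 rose (0.38) and AAR2 fell (-0.27). ANAPC1P4, a pseudogene and the only tested neighbour of CYTOR, fell (-0.66), and LSP1 was the only 1 of 5 genes around H19 that was called. SLC22A18, the only tested gene around KCNQ1OT1, was not called.

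**Figure D5:**
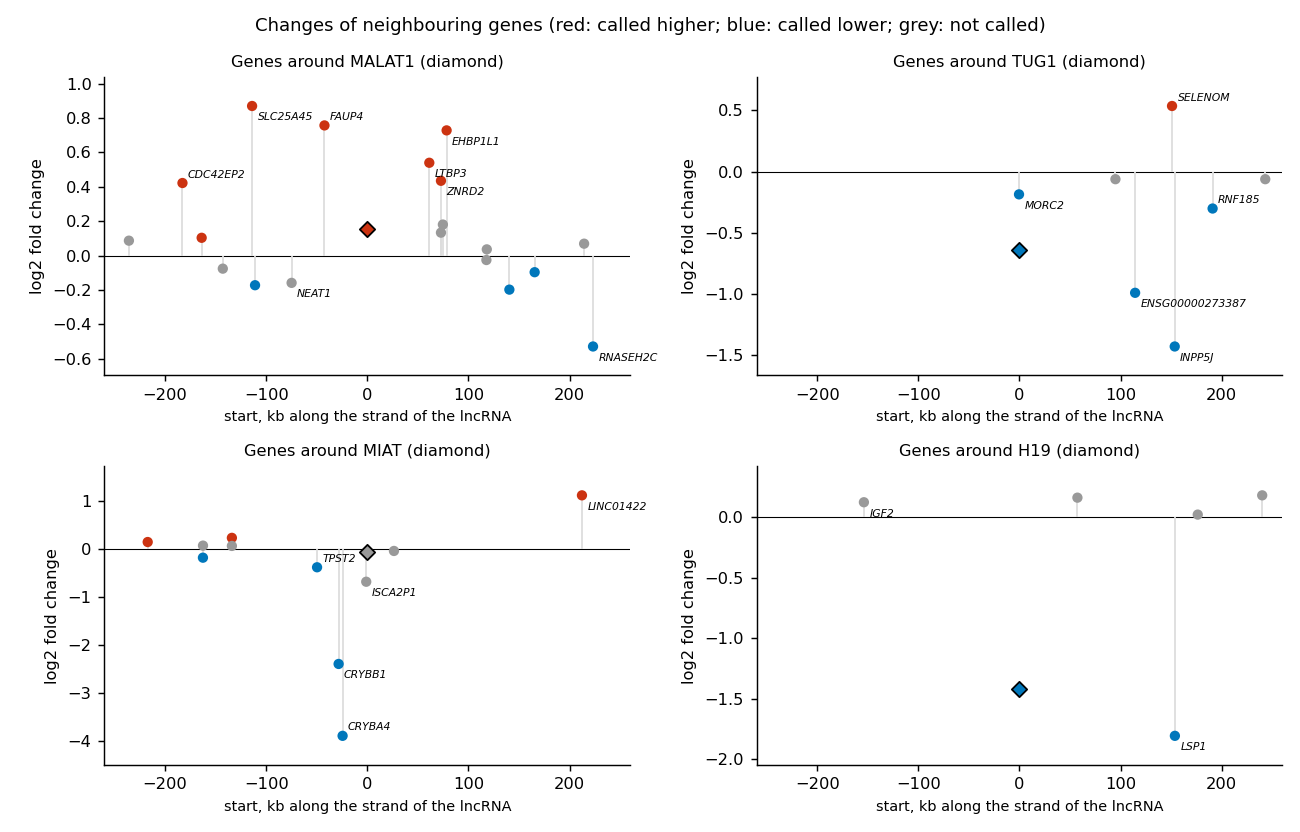
Log2 fold change of genes tested and reported here around MALAT1, TUG1, MIAT and H19 (diamonds) against the distance of their starts in kb along the strand of the lncRNA, in red where called higher, in blue where called lower and in grey where not called. Genes of both directions lie around MALAT1 and MIAT, CRYBA4 and CRYBB1 are the lowest points around MIAT, and LSP1 is the only coloured point beside H19.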

How the data were processed

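RNA of 10 libraries (5 siCtrl, 5 siDDX41) was extracted with a spin column kit, and libraries of polyadenylated RNA were prepared with the TruSeq stranded mRNA kit and sequenced as 84-base single reads. Per the submitters' processing notes and the methods of the study, the authors used bcl2fastq 2.19, STAR 2.7 with hg38 and Gencode release 25, and featureCounts 1.6. Each deposited table gives the counts of a single library as whole reads per gene, and nothing was scaled. Whether featureCounts used the strand, and what became of reads with several matches, is not given in the sources used here, so overlapping, antisense and near-identical genes could be split differently.

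Groups and replicate numbers came from the sample labels. Identifiers were joined without version to GENCODE release 44 on GRCh38 (15936 tested genes matched, 98.7%), which gave names, positions and exon lengths. Counts were tested with edgeR 4.0.16 under R 4.3.3 (low counts removed by filterByExpr, TMM scaling, robust glmQLFit and glmQLFTest, Benjamini-Hochberg adjustment over 16143 genes, calls at an adjusted p under 0.01, no covariate). Standard errors are the log2 fold change divided by the root of the F statistic. The biological coefficient of variation was 3.65%. Within-library ratios used log2 CPM with a prior count of 0.5, and permutation tests of single values were exact and two-sided. Counts of libraries of a group differed beyond sampling noise in each of 20 pairs (chi-square per degree of freedom 1.85 to 6.29).

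Alternatives changed the scaling, the filter, the test (DESeq2 1.42.0, limma 3.58.1), the threshold, a replicate block and the libraries used. The sum of MALAT1 and TALAM1 was not run because TALAM1 was not analysed here. The genes named are the 8 members, DDX41, the genes of each ratio, up to 3 genes per list with the smallest adjusted p, every neighbour called and the gene most like each member. Some genes that this rule names are not reported here. Further list genes (NONO, PSPC1, SFPQ, SON, SRRM2, PUM2, SF1, SRSF1, EZH2, SUZ12, EED, CBX7, PHC2, HNRNPU, RNF2, EHMT1, IGF2BP1, IGF2BP2 and LINC00511) were named after their values were seen. The members and lists were chosen with earlier results of these data known. Lists were written from general knowledge, and RBMX, HNRNPK, NUDT21, CPSF6 and SRSF1 stand on more than a single list. Unique 84-base windows and motifs were counted on hg38 and on the longest annotated transcripts.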

Additional observations from a re-analysis of the deposited data

Results flagged for a closer look

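Values that stood apart from the other 4 libraries of their group by Dixon's 95% limit were found in 8 of the 138 groups of 5 libraries that were checked, and chance gives about 1 in 20. Of the members, MALAT1 had 121 CPM in siDDX41 2, against 108 to 112 CPM in the other siDDX41 libraries, and without this library its log2 fold change was 0.13 (adjusted p = 0.00158 in edgeR's quasi-likelihood test). The log2 ratio of TUG1 to MORC2 was 2.00 in siCtrl 3, against 1.89 to 1.92 in the other siCtrl libraries.

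Of the other named genes, CDC5L had 143 CPM in siDDX41 4 (132 to 134 in the others) and CD81 had 221 CPM in siDDX41 5 (214 to 216 in the others). TFIP11-DT had 15.4 CPM in siDDX41 2 (12.9 to 13.5 in the others). In siCtrl 3, ASPHD2 had 39.4 CPM (41.9 to 42.8 in the others) and TPST2 had 156 CPM (163 to 166 in the others). CRYBA4 had 2.82 CPM in siCtrl 4 (2.33 to 2.45 in the others).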

How the results depend on the processing

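Of the 8 members, TUG1, CYTOR, H19 and MALAT1 were called in the same direction in each alternative that tested them, and NORAD and KCNQ1OT1 were called in none. Requiring at least 1 CPM in 5 libraries left 1 member called lower, since H19 was then not tested. The log2 fold change of MIAT was 0.0055 without siCtrl replicate 3 and ran from -0.13 to 0.01 with each library left out, whereas it was -0.07 with all libraries. NEAT1 was called with DESeq2's Wald test (adjusted p = 0.00204), edgeR with DESeq2's size factors (0.00839), limma-voom (0.00144), no filter on low counts (3.18e-07) and a threshold of 0.05, and its adjusted p-value over all alternatives ran from 3.18e-07 to 0.0265; the cause was not tested. With the replicate number as a block, 2 members were called higher and 2 lower, and over all genes 4790 were called higher and 5097 lower, against 4890 and 5178 without it. The block changed no call of a member, and the adjusted p of NEAT1 was 0.0205. Replicate numbers did not pair the libraries (r of deviations -0.05 to 0.04 between libraries of the same number, and 1 library correlated best with its own number). Without siCtrl 3 and siDDX41 2, a choice made after the data were seen, 2 members were called higher and 3 lower, and the ratios differed by -0.30 (NEAT1 to MALAT1), -1.49 (H19 to IGF2), 0.67 (CYTOR to MIR4435-2HG) and -0.45 (TUG1 to MORC2), each with p = 0.0286 in an exact permutation test. Alternatives were followed for 65 of the genes (the members, DDX41, the genes of the ratios, the leading genes of each list and the neighbours called), and 58 of these kept their direction and their side of the threshold in the alternatives run. Other genes named were not followed in this way. Of the others, besides NEAT1 and MIAT, the calls of DPF2, RELA and ASPHD2 were lost in 2, 9 and 1 settings, and MIR4435-2HG and IGF2 were called in 4 and 1. The scalings moved the median log2 fold change of all genes to no further than -0.01. Depth limits H19 and KCNQ1OT1 in particular, with 6 to 29 and 34 to 53 counts per library.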
